A study of Mus musculus with 13 samples.

Results

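The 8 genes described here encode proteins placed upstream of Yap in the Hippo pathway, most of them known to bind Yap or its upstream kinases. They are the angiomotins Amot, Amotl1 and Amotl2, the Ajuba family LIM proteins Ajuba, Limd1 and Wtip, the phosphatase Ptpn14 and the FERM protein Frmd6. They were taken by name, and all 8 were found among the 23361 gene symbols of the deposited tables, carried no failure mark in any library and passed the filter on low counts. Tumour RNA came from 13 samples of mouse hepatocellular carcinoma, the main cancer of hepatocytes. All mice were of the genotype Mst1-/-; Mst2Flox/Flox on a mixed C57BL/6 and 129Sv background, so Mst1 (gene Stk4) was lacking throughout the body, and an adenovirus carrying Cre was given to delete the floxed Mst2 (gene Stk3). Treated and control tumours thus carried the same alleles of both Hippo kinases, and the tables do not show whether the floxed part of Stk3 was lost. The tumours were found by ultrasound, and the animals were then assigned at random to 9 days of intravenous lipid nanoparticles with an siRNA against luciferase (siLuciferase-LNPs, here siLuc, 8 libraries), which has no mouse target, or against Yap (siYap-LNPs, here siYap, 5 libraries). The age of the mice is not given in the sources used here. Nothing in the labels ties a library to an animal of its own, so a p-value here speaks only of the spread over libraries, which may in part be technical.

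In the Hippo pathway, Mst1 and Mst2 activate the Lats kinases, which phosphorylate Yap and keep it out of the nucleus, where it would otherwise act with Tead transcription factors. Angiomotins can hold Yap at tight junctions and on actin filaments through PPxY motifs that contact its WW domains, and can also activate Lats. Ajuba proteins do the opposite: their LIM domains bind Lats and reduce its activity towards Yap. Ptpn14 binds Yap through PPxY motifs and restrains it, and Frmd6 (Willin) is related to Drosophila Expanded, an upstream activator of the pathway. Amotl2 and Ptpn14 are members of published lists of Yap target genes, so some of these regulators are themselves known to be under Yap's control.

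The siRNA target was lower in every treated library. Yap1 stood at 4.08, 4.17, 2.72, 2.22 and 3.23 FPKM (fragments scaled to transcript length and library size) in siYap replicates 1 to 5, against 8.10 to 11.9 FPKM, median 10.2, in siLuc. Libraries held 23637021 to 37043914 fragments. siYap replicates 1 and 3 had the lowest totals and 1160 and 1882 CPM (counts scaled to library size) of the ribosomal precursor Rn45s, against 479 to 812 CPM in the other 11 libraries. siLuc replicate 8 held 28874 fragments of Y-linked genes, against at most 11 elsewhere, and is named beside Amot, which is X-linked. Hepatocyte markers were abundant in all libraries: of the 8 markers chosen, the lowest value in any library was 61.1 FPKM (Hnf4a). Of these markers 1 rose (Tat) and 2 fell (Fgb and Serpina1a), and their sums were 15469 to 24402 FPKM in siLuc and 10996 to 19506 FPKM in siYap, lowest in replicates 1 and 3.

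Of the 8 genes, 4 fell in siYap tumours, none rose and 4 did not pass the test. Calls came from edgeR's quasi-likelihood model of the fragments of 15132 genes, with a gene called at a Benjamini-Hochberg adjusted p under 0.05, and it called 14.8% of all genes lower, 16.0% higher and so 30.8% in either direction. Ajuba, Amot, Amotl2 and Wtip were the genes that fell. The median log2 fold change of the 8 genes was -0.80, beside -0.0026 over all genes tested. Without siYap replicates 1 and 3, Ajuba, Amot and Wtip were called (adjusted p = 8.95e-05, 0.00376 and 0.0339) in a fit that called 19.4% of all genes. Amotl2 then missed the threshold (adjusted p = 0.122). The 8 genes were proposed with results of these data in view, so this count is a description of the named genes.

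The promoters of the 4 genes that fell are shown because the Tead factors through which Yap acts bind a short DNA motif, GGAATG. Each window runs from 250 bases before to 50 after the start in RefSeq, 5′ to 3′ on the gene's own strand, on GRCm38.p6, the mm10 build of the files. These starts can differ from the gene limits given in the text, which are those of GENCODE M21: the Ajuba window lies wholly upstream of its GENCODE limit, and the starts of Amot and Amotl2 lie inside theirs. Capitals mark GGAATG on either strand, so that CATTCC is the same motif on the other strand. The windows are chr14:54577612-54577911 for Ajuba (minus strand), chr7:34133219-34133518 for Wtip (minus strand), chr9:102717554-102717853 for Amotl2 (plus strand) and chrX:145487590-145487889 for Amot (minus strand).
Ajuba: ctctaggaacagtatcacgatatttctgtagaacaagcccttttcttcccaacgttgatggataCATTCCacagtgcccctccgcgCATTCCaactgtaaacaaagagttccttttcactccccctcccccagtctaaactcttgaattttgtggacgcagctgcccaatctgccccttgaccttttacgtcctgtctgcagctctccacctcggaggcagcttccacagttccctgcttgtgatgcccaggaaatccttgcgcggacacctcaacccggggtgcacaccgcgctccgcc
Wtip: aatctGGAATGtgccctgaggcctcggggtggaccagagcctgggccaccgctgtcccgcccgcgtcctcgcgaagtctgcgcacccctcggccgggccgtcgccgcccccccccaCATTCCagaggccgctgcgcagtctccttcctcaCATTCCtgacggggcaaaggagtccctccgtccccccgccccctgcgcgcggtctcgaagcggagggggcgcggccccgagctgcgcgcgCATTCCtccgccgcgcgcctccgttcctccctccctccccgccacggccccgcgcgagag
Amotl2: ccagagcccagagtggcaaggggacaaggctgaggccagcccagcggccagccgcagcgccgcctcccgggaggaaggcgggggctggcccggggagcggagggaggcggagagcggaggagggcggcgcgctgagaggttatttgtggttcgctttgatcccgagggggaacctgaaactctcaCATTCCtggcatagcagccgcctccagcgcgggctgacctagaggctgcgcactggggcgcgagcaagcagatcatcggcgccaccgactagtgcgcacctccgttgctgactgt
Amot: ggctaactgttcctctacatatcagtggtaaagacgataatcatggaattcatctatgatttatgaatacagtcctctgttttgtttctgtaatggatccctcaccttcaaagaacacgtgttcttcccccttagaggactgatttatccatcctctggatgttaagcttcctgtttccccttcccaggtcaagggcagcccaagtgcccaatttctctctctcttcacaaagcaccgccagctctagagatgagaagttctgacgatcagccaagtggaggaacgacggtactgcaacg
Wtip held 4 matches, Ajuba 2, Amotl2 1 and Amot 0. Of 32851 promoter windows of the same length in the table, 14.7% held at least 1 match, 1.36% held 2 or more, and 6 windows (0.0183%) held 4 or more. Counted from the start, the Ajuba matches began at -186 and -164, those of Wtip at -245, -134, -100 and -10, and that of Amotl2 at -65. Among the genes that did not pass the test, the Ptpn14 window held 1 match and those of Amotl1 and Frmd6 held 0. Limd1 had no entry, so 7 of the 8 genes were matched. The AP-1 motif TGANTCA, searched on both strands, was in none of the 7 windows and in 7.81% of all windows. These matches describe letters in a window and are not measurements of binding.

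Ajuba, the founding member of the LIM family that inhibits Lats, had the largest fall of the 8 genes. It was between 9.69 and 17.8 FPKM in siLuc, with a median of 13.5, and at 3.88, 5.36, 3.61, 3.69 and 3.69 FPKM in siYap replicates 1 to 5. The highest treated library lay well under the lowest control, so the groups did not overlap, which was true of 5.66% of all genes in this direction and of 5.57% in the other. The mean went from 13.6 ± 2.33 (SD, n = 8) to 4.04 ± 0.740 FPKM (SD, n = 5), 29.8% of the control level. The log2 fold change was -1.73 ± 0.15 (SE), adjusted p = 4.60e-06 by edgeR. Ajuba spans 54567472 to 54577558 on the minus strand of chromosome 14 (mm10). It was called under each of the 26 alternatives, with log2 fold changes from -1.86 to -1.53.

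Wtip, a less studied relative of Ajuba first found as a partner of the Wilms tumour protein Wt1, also fell. It ran from 1.49 to 4.52 FPKM in siLuc, with a median of 2.74, and stood at 1.78, 1.16, 0.829, 1.08 and 1.44 FPKM in siYap. Of the siYap libraries, 4 lay below the lowest control in FPKM, and replicate 1 lay above it. In log2 CPM of the fragments, the lowest control, siLuc replicate 1, was at 1.35. On that scale siYap replicates 1 (1.70) and 5 (1.61) both lay above it. The mean went from 2.87 ± 1.05 to 1.26 ± 0.365 FPKM (SD, n = 8 and 5), a log2 fold change of -1.23 ± 0.30 (SE) with adjusted p = 0.00711 by edgeR. Wtip (chromosome 7, 34109543 to 34133268, minus strand) was the least covered of the 8 genes, with 47 to 352 fragments per library, so its counting error was the largest. In limma on log2(FPKM + 1), a scale that understates low genes, the log2 fold change was -0.74. Limd1 (chromosome 9, 123478706 to 123521552, plus strand), the remaining family member and a known tumour suppressor in lung, stayed within the control range. It was at 9.34 to 14.8 FPKM in siLuc, median 12.5, and at 10.4, 12.8, 14.4, 12.3 and 11.7 FPKM in siYap (log2 fold change 0.04 ± 0.10 SE, edgeR adjusted p = 0.794). All 5 treated libraries lay between the lowest and the highest control, and over the 26 alternatives the log2 fold change ran from -0.04 to 0.08.

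Amot, the angiomotin that gave the family its name, fell to 50.8% of its control level. It was at 8.07 to 13.7 FPKM in siLuc, with a median of 12.6, and at 6.02, 6.35, 6.40, 5.36 and 4.77 FPKM in siYap. No treated library reached the lowest control, siLuc replicate 1. The means were 11.4 ± 2.33 and 5.78 ± 0.701 FPKM (SD, n = 8 and 5), with a log2 fold change of -0.98 ± 0.17 (SE) and adjusted p = 0.000629 by edgeR. Amot lies on the X chromosome (145446425 to 145505181, minus strand). Without siLuc replicate 8, the library with Y-linked transcripts, its log2 fold change was -0.95 (adjusted p = 0.00117).

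Amotl2, the angiomotin on published Yap target lists, was the most variable gene of the group in control tumours and fell by a margin that depended on the libraries used. It ran from 7.21 FPKM in siLuc replicate 1 to 43.9 FPKM in siLuc replicate 8, a 6.10-fold range with a median of 20.9, and stood at 5.61, 12.4, 14.7, 12.7 and 10.4 FPKM in siYap. The groups overlapped: siLuc replicates 1 and 3, at 7.21 and 12.4 FPKM, lay within the treated range, and the other 6 controls lay above it. The log2 fold change was -0.99 ± 0.32 (SE), with adjusted p = 0.0318 by edgeR. The call held in 13 of 26 alternatives. It was lost without siLuc replicate 2 (adjusted p = 0.0512) or 7 (0.0504) and without siYap replicate 1 (0.0778), 2 (0.0508), 4 (0.0506) or 5 (0.0637), and in limma on log2(FPKM + 1) (0.0730). Without siLuc replicate 8, the highest control and the library with Y-linked transcripts, the log2 fold change was -0.77 (edgeR adjusted p = 0.0473). That was the smallest fall over the fits that each leave out 1 library. Amotl2 lies on chromosome 9 (102716672 to 102733418, plus strand).

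Amotl1, the remaining angiomotin, was at a low level in all libraries and did not share in the fall. It was at 1.80 to 2.50 FPKM in siLuc, median 2.12, and at 2.91, 2.23, 3.42, 2.48 and 2.19 FPKM in siYap. All 5 treated libraries lay above the control median, and 2 of them above the highest control. The log2 fold change of 0.38 ± 0.15 (SE) missed the threshold (edgeR adjusted p = 0.0609). It passed without siYap replicate 2 (adjusted p = 0.0403) or 5 (0.0366), while without siYap replicates 1 and 3, the 2 libraries with the lowest totals and the highest Amotl1, the log2 fold change was 0.10 (adjusted p = 0.633). Amotl1 lies on chromosome 9 (14541966 to 14645056, minus strand), on the same chromosome as Amotl2 and Limd1.

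**Figure D1:**
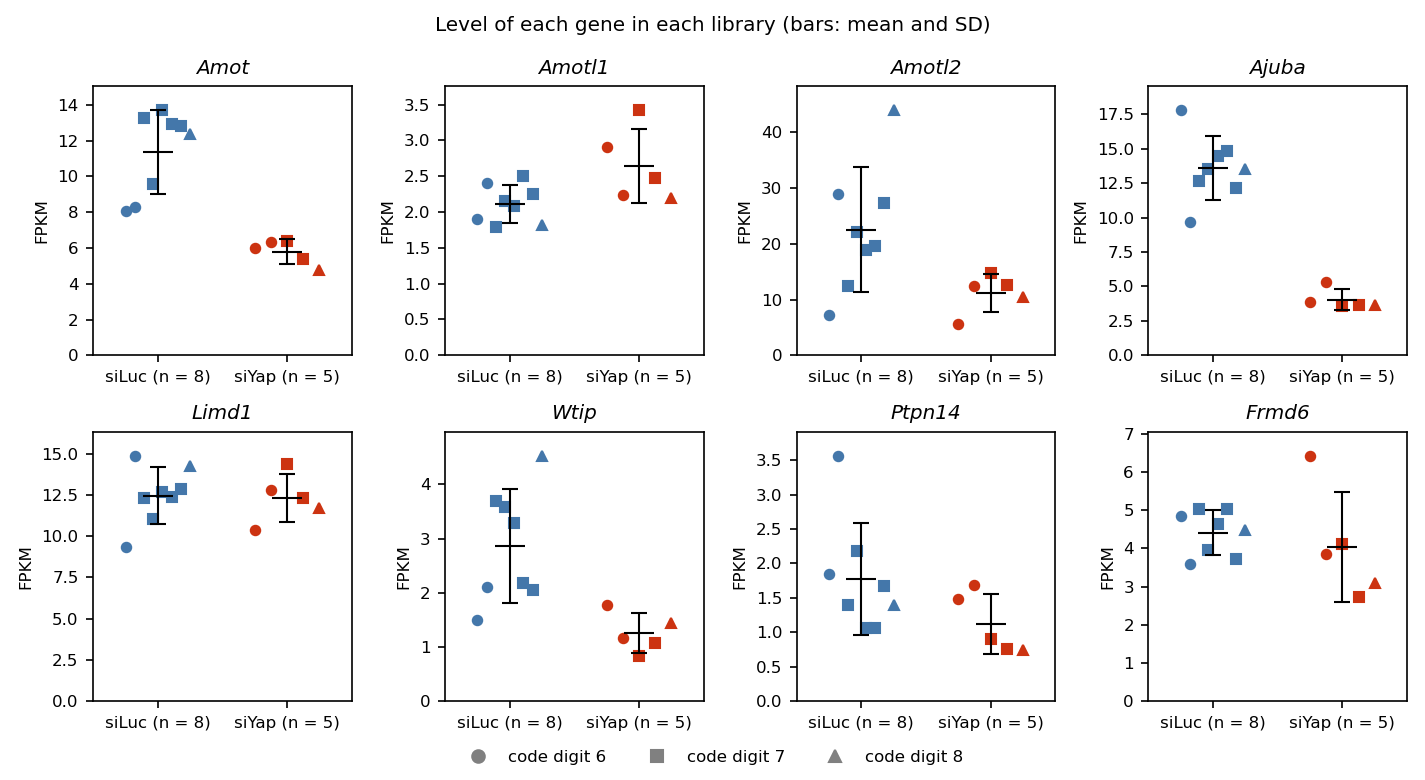
FPKM of each of the 8 genes in each library (points; shapes give the first digit of the library's file code, 6, 7 or 8), with the mean and SD of each group as a bar. For Ajuba and Amot the siYap points lie under all siLuc points, the siYap points of Limd1 lie within the siLuc range, and Amotl2 in siLuc spreads from 7.21 to 43.9 FPKM.

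Ptpn14, the phosphatase that restrains Yap, was the lowest of the 8 genes and did not pass the test over all libraries. It was at 1.06 to 3.55 FPKM in siLuc, median 1.53, and at 1.48, 1.68, 0.909, 0.764 and 0.743 FPKM in siYap (log2 fold change -0.63 ± 0.31 SE, edgeR adjusted p = 0.133). The groups overlapped, with siYap replicates 1 and 2 above the lowest controls. The file names carry a code whose first digit (6, 7 or 8) is shared by libraries of both treatments, and the labels do not say what the digit stands for. Among the libraries with digit 6, Ptpn14 was at 1.85 and 3.55 FPKM in siLuc and at 1.48 and 1.68 FPKM in siYap. With digit 7 it was at 1.06 to 2.19 FPKM in the 5 siLuc libraries and at 0.909 and 0.764 FPKM in siYap. The single pair with digit 8 stood at 1.40 and 0.743 FPKM. Within each digit, then, every treated library lay below every control, as was also true of Ajuba, Amot and Yap1. Such separation comes easily with 1 to 5 libraries per group, and its share over all genes was not counted. With the digit as a term in the edgeR model, the log2 fold change of Ptpn14 was -0.80 and passed (adjusted p = 0.0110), in a fit that called 33.6% of all genes. The siYap libraries of a digit share 1 file-name number, as do both digit 6 controls, and with fragments summed per number Ptpn14 did not pass (log2 fold change -0.75, adjusted p = 0.144). Ptpn14 spans 189728268 to 189876695 on the plus strand of chromosome 1. An antisense gene, Gm26574, overlaps 177 of its 10746 exonic bases, and the other 7 genes have no such overlap in GENCODE M21.

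Frmd6, the FERM protein Willin, did not differ between the groups beyond their spread. It was at 3.58 to 5.03 FPKM in siLuc, median 4.56, and at 6.40, 3.85, 4.12, 2.72 and 3.10 FPKM in siYap (log2 fold change -0.12 ± 0.18 SE, edgeR adjusted p = 0.648). The treated group held both the highest library of all, siYap replicate 1, and the lowest, siYap replicate 4. Without siYap replicates 1 and 3 the log2 fold change was -0.45 (adjusted p = 0.0609). Frmd6 lies on chromosome 12 (70825514 to 70902234, plus strand).

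**Figure D2:**
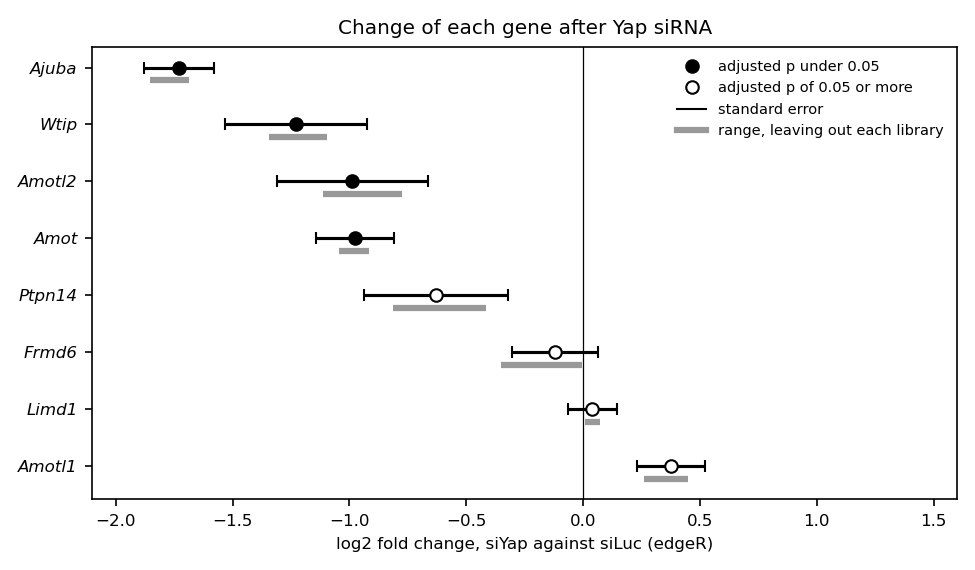
log2 fold change of each gene, siYap against siLuc, from edgeR (points, filled where the adjusted p was under 0.05), with its standard error and, as a grey bar, the range over fits that each leave out 1 library. The filled points run from -1.73 for Ajuba to -0.98 for Amot, and the points for Limd1 and Frmd6 lie near 0.

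Within each digit of the file code, the means of Ajuba, Amot, Amotl2, Wtip and Ptpn14 were lower in siYap than in siLuc, but by unequal amounts. The Ajuba difference in mean log2 CPM was -1.44, -1.90 and -1.86 for digits 6, 7 and 8. Every digit 8 value sets 1 library, siYap replicate 5, against siLuc replicate 8, the one with Y-linked fragments, so treatment cannot be told apart there from sex or from any other trait of that pair. Amot differed by -0.35 with digit 6 and by -1.10 and -1.36 with digits 7 and 8. Both digit 6 controls of Amot, siLuc replicates 1 and 2, were the lowest of the control group at 8.07 and 8.30 FPKM. Wtip likewise differed by -0.23 with digit 6, where the groups overlapped, and by -1.59 and -1.62 with digits 7 and 8. The Amotl2 difference was -0.72, -0.53 and -2.06, and its groups overlapped with digits 6 and 7. Ptpn14 had the most even differences of the genes that were lower, at -0.62, -0.78 and -0.90. Amotl1 was higher in siYap within each digit (0.34, 0.42 and 0.28), and passed with the digit as a term (adjusted p = 0.0493). Frmd6 changed sign, at 0.30 with digit 6 and -0.43 and -0.52 with digits 7 and 8, and so did Limd1, at 0.09, 0.10 and -0.27. Whether the treatment difference itself varied between digits was not tested. Some libraries also share a number in their file names (siLuc replicates 1 and 2, siLuc replicates 5 to 7, siYap replicates 1 and 2, siYap replicates 3 and 4) and may share a source.

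**Figure D3:**
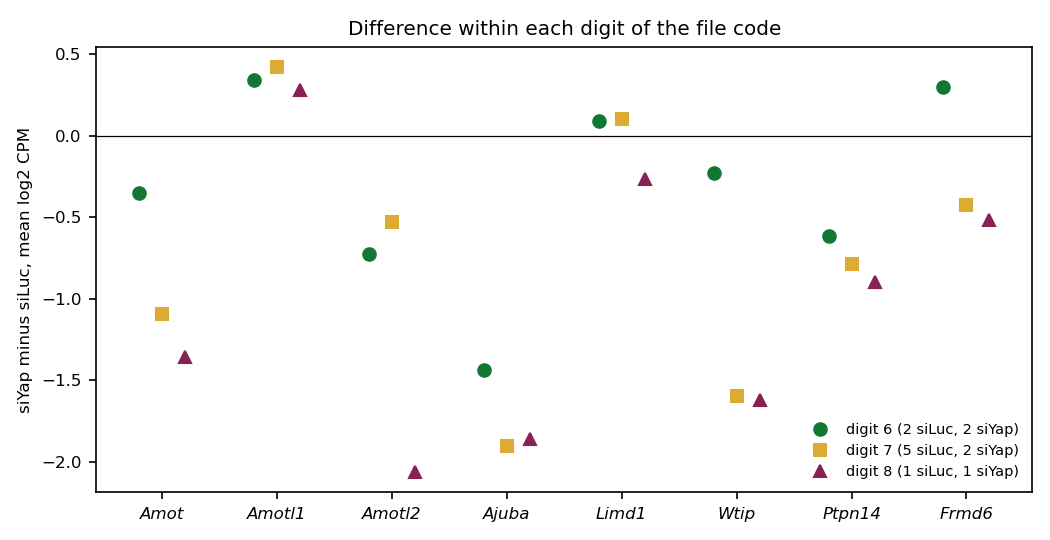
Difference in mean log2 CPM between siYap and siLuc within the libraries of each file code digit, for each gene. The points for Ptpn14 and Ajuba lie close together below 0, those for Amot and Wtip lie nearer to 0 with digit 6, and those for Frmd6 and Limd1 fall on both sides of 0.

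Within both families, paralogs differed in their response. For each pair of paralogs, the log2 ratio of their fragments within a library was compared between siYap and siLuc by an exact permutation test of the treatment labels, two-sided, with 1287 arrangements and adjustment over the 6 pairs. Such a ratio does not depend on how libraries are scaled. It reuses the fragments behind the single-gene calls, and the genes were chosen with earlier results of these data known. The p-values of these ratios are therefore not support independent of those calls. The ratio of Ajuba to Limd1 differed by -1.77 (exact p = 0.000777, the smallest possible, adjusted 0.00233): in FPKM, Ajuba was 0.653 to 1.90 times Limd1 in siLuc and 0.251 to 0.418 times in siYap. The ratio of Amot to Amotl1 differed by -1.30 (exact p = 0.000777, adjusted 0.00233), from 3.46 to 7.39 times in siLuc to 1.87 to 2.85 times in siYap. Neither of these ratios overlapped between groups. Limd1 gained on Wtip by 1.19 (exact p = 0.00466, adjusted 0.00932), and Amotl1 gained on Amotl2 by 1.23 (exact p = 0.0101, adjusted 0.0152). Without siYap replicate 1, which had the highest ratio of Amotl1 to Amotl2 (0.519), the latter difference was 0.96 and missed the threshold (exact permutation, adjusted p = 0.0545). The genes that fell within a family were not separated from each other: the Amot to Amotl2 ratio differed by -0.07 (exact p = 0.839) and the Ajuba to Wtip ratio by -0.58 (exact p = 0.113, adjusted 0.135).

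**Figure D4:**
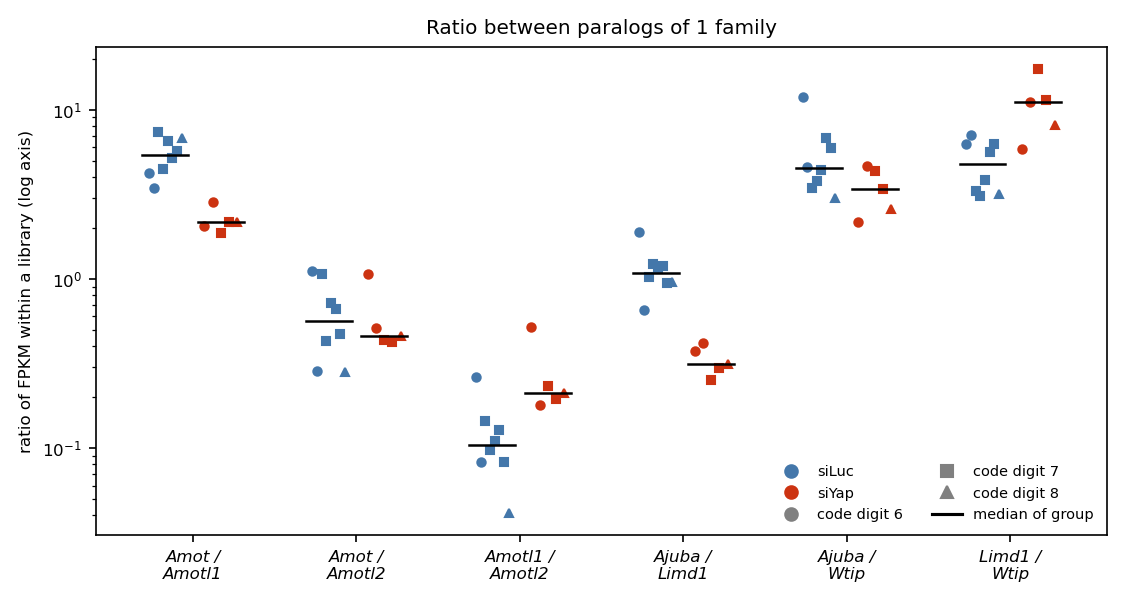
Ratio of FPKM between paralogs within each library, on a log axis, with the median of each group as a line. The siYap ratios of Ajuba to Limd1 (0.251 to 0.418) and of Amot to Amotl1 (1.87 to 2.85) lie below every siLuc ratio, whereas the groups overlap for Amot to Amotl2 and Ajuba to Wtip.

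The make-up of the Ajuba LIM family changed accordingly, and that of the angiomotins changed less. Ajuba supplied 36.4% to 62.1% of the summed FPKM of the Ajuba LIM genes in siLuc and 19.2% to 27.7% in siYap, while the share of Limd1 went from 32.6% to 55.7% up to 64.7% to 76.4%. The summed level of the 3 LIM genes was 28.9 ± 1.83 FPKM in siLuc and 17.6 ± 1.38 FPKM in siYap (SD, n = 8 and 5), with no overlap. Among angiomotins, Amotl2 kept a similar share of the sum, 59.5% ± 12.3 in siLuc and 55.9% ± 9.72 in siYap, and the share of Amotl1 was 6.45% ± 2.22 and 13.9% ± 3.64. The summed level of the 3 angiomotins was 17.2 to 58.1 FPKM in siLuc and 14.5 to 24.6 FPKM in siYap, and siLuc replicate 1 lay within the treated range. These sums and shares are descriptions and were not tested.

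In FPKM, which allows genes to be compared per length, the order of mean levels in siLuc was Amotl2 (22.6), Ajuba (13.6), Limd1 (12.5), Amot (11.4), Frmd6 (4.41), Wtip (2.87), Amotl1 (2.11) and Ptpn14 (1.77). The step from Amot to Frmd6 was the one between neighbours whose ranges did not overlap. Ajuba lay above Limd1 in 5 of 8 control libraries and Limd1 above Amot in 5 of 8, so the order among these 3 was not fixed. In siYap the order was Limd1 (12.3), Amotl2 (11.2), Amot (5.78), Ajuba (4.04), Frmd6 (4.04), Amotl1 (2.65), Wtip (1.26) and Ptpn14 (1.12). Ajuba, second in the controls, then stood level with Frmd6, above it in 3 of 5 libraries, and the step from Amotl1 to Wtip was the one without overlap. Spread within a group also differed between the genes: the highest control was 3.34 times the lowest for Ptpn14 and 3.03 times for Wtip, against 1.39 to 1.84 times for Amotl1, Frmd6, Limd1, Amot and Ajuba.

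The genes nearest in pattern to each gene that fell were found by the root mean square, over the 13 libraries, of the difference between 2 genes' log2 CPM, each centred on its own mean, among 11498 genes with at least 1 FPKM in either group. For Ajuba the nearest was Pafah1b3, a subunit of a platelet-activating factor acetylhydrolase (0.22), where the median gene was at 0.92. For Amot they were Rgs10, a regulator of G-protein signalling, and F11r, the junctional adhesion molecule JAM-A (both 0.19, median gene 0.64). For Amotl2 the nearest was Tk1, thymidine kinase (0.25), then Tlcd2 (0.35, median gene 0.81), and for Wtip they were Gnb5 (0.32) and the kinetochore gene Dsn1 (0.32, median gene 0.81). Tk1 stood at 22.4 ± 8.73 FPKM in siLuc and 11.6 ± 2.03 in siYap (SD, n = 8 and 5), close to the levels of Amotl2. The nearest of 11498 genes lies below the median gene by selection, so the medians give only the scale of the distances. Since the pattern includes the treatment difference, each of these genes was also lower in siYap. None of the 8 genes was among the nearest of another.

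The partners of angiomotins at cell junctions were taken from a list of their own. Of 20 genes tested from a list of polarity, junction and ubiquitin-pathway partners, 4 rose, 3 fell and 13 did not pass (median log2 fold change -0.01), where 16.0% of all genes were called higher and 14.8% lower. Pard3, the polarity scaffold Par3, was at 5.58 to 10.4 FPKM in siLuc and at 13.7 to 27.5 FPKM in siYap, and rose by 1.13 ± 0.16 on the log2 scale (edgeR adjusted p = 0.000132). The level of Pard6b, its partner Par6b, fell by 1.28 ± 0.19 on the log2 scale, with means of 4.13 ± 0.772 and 1.69 ± 0.403 FPKM (adjusted p = 0.000276), and the apical protein Crb3 fell from 13.6 ± 1.37 to 8.69 ± 1.95 FPKM (adjusted p = 0.00426). For these 3 genes, the called partners with the smallest p, the groups did not overlap. The other called partners, Cdh1, Tnks, Magi3 and Arhgap17, overlapped. Of all genes, 5.57% were higher in siYap without overlap and 5.66% were lower without overlap. Inadl (Patj), Mpp5 (Pals1) and Nedd4, which bind or ubiquitinate angiomotins, did not pass. The number that rose was 2 without siYap replicate 1 or 3, when Arhgap17 (adjusted p = 0.0527 and 0.0777) was lost with Tnks (0.0515) or Magi3 (0.0784). Magi3 (edgeR adjusted p = 0.0429 over all libraries) kept its call in 12 of 26 alternatives. It was lost when any one of siLuc replicates 1 to 6 or siYap replicates 2 to 5 was left out.

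Structural relatives outside the 8 genes formed the next list. Of 15 tested from a list of zyxin-type LIM proteins, FERM phosphatases and other FERM proteins, 6 rose, 4 fell and 5 did not pass, with a median log2 fold change of 0.18, beside 16.0% of all genes called higher and 14.8% lower. Ezr, the membrane to actin linker ezrin, fell by 2.03 ± 0.19 on the log2 scale, with means of 24.2 ± 6.89 and 5.81 ± 0.778 FPKM (edgeR adjusted p = 6.88e-06), while its relative Msn, moesin, rose from 8.33 ± 1.13 to 16.9 ± 6.98 FPKM (log2 fold change 1.05, edgeR adjusted p = 0.00227, and 0.49 with adjusted p = 0.0308 without siYap replicates 1 and 3). Trip6, a zyxin-family LIM protein that, like Ajuba, inhibits Lats, fell from 13.1 ± 1.64 to 7.56 ± 1.86 FPKM (adjusted p = 0.000651), and the phosphatase Ptpn4 fell from 11.6 ± 2.98 to 5.86 ± 0.811 FPKM (adjusted p = 0.000924). Zyx, zyxin itself, was 3.13 ± 0.545 and 5.50 ± 2.63 FPKM and rose (adjusted p = 0.0123), but did not pass without siYap replicates 1 and 3 (log2 fold change 0.39, adjusted p = 0.181). Ptpn21, the closest relative of Ptpn14, was at 5.83 ± 1.45 and 6.53 ± 1.98 FPKM and did not pass (adjusted p = 0.513). Without siYap replicate 3, in a fit that called 21.8% of all genes, 2 of these genes rose: Zyx (adjusted p = 0.0532), Ptpn3 (0.0624), Frmd4b (0.0841) and Frmd8 (0.0761) were then lost. Msn and Zyx were chosen for mention after their values were seen.

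The Hippo pathway itself, into which these proteins feed, was measured next. Of 26 genes for kinases, adaptors and nuclear factors of the Hippo pathway, 2 fell, 2 rose and 22 did not pass, beside 14.8% and 16.0% of all genes called lower and higher (30.8% in all). Yap1, the siRNA target, and Tead4 fell, the latter from 3.42 ± 0.936 to 0.810 ± 0.265 FPKM (log2 fold change -2.05, edgeR adjusted p = 7.40e-05, and -1.27 in limma on log2(FPKM + 1)). Taok3, a kinase upstream of Mst1 and Mst2, had means of 4.83 ± 0.449 and 10.3 ± 4.93 FPKM and rose by 1.08 ± 0.20 on the log2 scale (adjusted p = 0.00104), and by 0.66 without siYap replicates 1 and 3. Wwc2, a relative of Kibra, was the other riser (adjusted p = 0.0477), and it lost the call when any one of siLuc replicates 1 to 6 and 8 or of siYap replicates 1, 3 and 4 was left out, with adjusted p between 0.0546 and 0.204. The Lats kinases, which the Ajuba proteins and angiomotins contact, did not pass: Lats1 was at 10.6 ± 1.53 and 12.6 ± 0.793 FPKM (adjusted p = 0.0654, and 0.0422 without siLuc replicate 1) and Lats2 at 7.95 ± 1.21 and 7.31 ± 0.767 FPKM (adjusted p = 0.278). Wwtr1, the Yap paralog Taz, did not pass (adjusted p = 0.192). Stk3 was at 6.12 ± 0.619 and 5.22 ± 1.32 FPKM (adjusted p = 0.145), and without siYap replicate 1 it and Map4k4 passed as lower (adjusted p = 0.0490 and 0.0243). Stk4 was at 0.0533 ± 0.0261 and 0.0440 ± 0.0194 FPKM. Reads over all of Stk3 enter its value, which therefore says nothing of the floxed exons.

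Markers of other cell types in the tumours were measured beside these genes, since angiomotins are also known from endothelial cells and bulk RNA cannot tell fewer cells of a type from less RNA per cell. The counts stand beside 16.0% of all genes called higher and 14.8% lower. Of 8 endothelial markers, 3 rose (Tie1, Stab2 and Lyve1) and none fell, and their summed level was 47.0 to 74.7 FPKM in siLuc and 62.0 to 77.9 FPKM in siYap. Of 8 fibroblast and stellate markers, 3 rose and none fell, with sums of 58.7 to 284 and 160 to 643 FPKM. Of 7 cholangiocyte markers, 3 fell and none rose, with sums, mostly of Spp1, of 1939 to 5055 and 161 to 1141 FPKM. Of 7 macrophage and leukocyte markers, 3 fell and none rose, with overlapping sums of 72.0 to 181 and 55.8 to 152 FPKM. No marker was at 0 in any library. The part of these cell types in the levels of the 8 genes was not tested.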

How the data were processed

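Tumour RNA of 8 siLuc and 5 siYap libraries was analysed. Per the labels' protocols, the kit was ScriptSeq Complete Gold and the sequencer a HiSeq2500. The submitters' processing notes name Trimmomatic 0.30, TopHat2 2.0.8, Cufflinks, Cuffdiff 2.1.1 and the build mm10. They give no annotation, strand setting or treatment of multiply mapped reads. The deposited Cuffdiff tables, 1 a library, hold raw fragments, which per the file headers are unscaled and are estimated counts (97.6% to 98.0% of values lay within 1e-06 of a whole number), and FPKM scaled by the authors with Cuffdiff. Per the file headers, the replicate index of the siYap tables runs to 7 with gaps, so libraries not analysed here may have entered that scaling. By their status entries, 3 genes at 0 in all libraries were too deep to estimate and were left out.

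The estimated counts were rounded and tested with edgeR 4.0.16 in R 4.3.3 (TMM, default filter by group, robust quasi-likelihood F test, no covariates, all 13 libraries). P-values were adjusted over all 15132 genes tested. Each standard error was obtained by dividing the log2 fold change by the square root of F. Paralog ratios used fragments plus 0.5. Alternatives used DESeq2 1.42.0, limma 3.58.1 on log2(FPKM + a pseudocount of 1 or 0.1) where 5 or more libraries reached 1 FPKM, other scalings and filters, the file code digit, counts summed per file-name number (5 in siLuc, 3 in siYap), the replicate number as a block, and libraries left out. Named genes are the 8 members, Yap1, Wwtr1, Stk3 and Stk4, the up to 3 called genes of each list with the smallest p, and the 2 genes nearest in pattern to each called member, of which 1 is not reported here; others were named after their values were seen. The members and lists were chosen with earlier results of these data known. 2 listed genes, Epb41l3 and Epb41l5, were not analysed here.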

Additional observations from a re-analysis of the deposited data

Results flagged for a closer look

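Among the 16 groups of values looked at (8 genes in each treatment), 2 held a library whose gap to its nearest neighbour was larger, relative to the group's range, than Dixon's critical value; chance gives about 1 in 20 groups. Ajuba in siYap replicate 2 was at 5.36 FPKM, with the next highest siYap library at 3.88 FPKM, and it was still below the lowest control. Without that library the log2 fold change of Ajuba was -1.86 by edgeR (adjusted p = 6.48e-06). Ptpn14 in siLuc replicate 2 was at 3.55 FPKM, with the next highest siLuc library at 2.19 FPKM. Without that library the log2 fold change of Ptpn14 was -0.41 by edgeR (adjusted p = 0.238). The Ptpn14 gap was 0.550 of the range, just over the critical value of 0.526. The rule was applied to FPKM and not to a log scale, on which the flagged libraries can differ.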

How the results depend on the processing

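Of 1782 comparisons of 69 single-gene fold changes with their alternatives, 1681 kept their side of the threshold, 76 lost the call and 25 gained it. None changed sign where the gene was called in the main fit or in the alternative. Changes of sign in genes called in neither were counted as kept, as for Limd1 (0.04 in the main fit, -0.04 at the lowest). The alternatives include the main fit read at an adjusted p under 0.01, where calls are lost to the stricter threshold alone. The counts of genes higher and lower were 2422 and 2246, and 1729 to 2397 and 1596 to 2236 over the fits that each leave out 1 library. They were 1512 and 1472 without siYap replicates 1 and 3, 1264 and 1098 at an adjusted p under 0.01, and 1587 and 1480 in the 10 libraries numbered 1 to 5, a subset chosen after seeing the data. The replicate numbers did not pair the libraries (same-number correlations from -0.146 to 0.16, 2 of 5 over 0.1, and 2 of 5 siYap libraries closest to their own number). With the replicate block on those 10 libraries, 1186 genes were higher and 1112 lower, 1 Hippo gene was higher, Amotl2 was at -0.59 (adjusted p = 0.103), Wtip was at an adjusted p of 0.0724 and Ptpn14 at 0.0398, and the paralog differences were -1.20 (Amot over Amotl1), 0.95 (Amotl1 over Amotl2), -1.80 (Ajuba over Limd1) and 1.19 (Limd1 over Wtip), at adjusted exact permutation p of 0.125, 0.125, 0.125 and 0.188, where 5 pairs allow no unadjusted p under 0.0625. Of the 8 genes, 3 to 5 were called lower in all alternatives, and 1 (Amotl1) higher with the file code digit as a term and 0 to 1 over the left-out libraries. Of the Hippo genes, 1 was higher with upper-quartile scaling, no filter, either limma fit, counts summed per file-name number, the 10 libraries without the block or an adjusted p under 0.01, and 1 to 3 were higher and 2 to 4 lower over the left-out libraries. Of the angiomotin partners, 2 were higher in limma on log2(FPKM + 1) and without siYap replicates 1 and 3, 1 at an adjusted p under 0.01, and 2 to 4 over the left-out libraries. Of the relatives, 2 were higher without siYap replicates 1 and 3, 1 at an adjusted p under 0.01, and 2 to 6 over the left-out libraries. With counts summed per file-name number, Limd1 over Wtip was 1.32 (adjusted exact permutation p = 0.0536) and Amotl2 missed the threshold (edgeR adjusted p = 0.0586). Amotl1 over Amotl2 ran from 0.96 to 1.41 over the left-out libraries. The cause of these changes was not tested. Scaling by DESeq2 size factors or the upper quartile left the median of all genes at -0.0046 and -0.014. Wtip, at 47 to 352 fragments, is the gene whose precision depth limits most.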
